A study of Mus musculus with 16 samples.

Results

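The cytosolic ribosome holds a large and a small subunit, and the genes of its protein part are described here in 16 RNA-seq libraries of cultured mouse muscle cells. Members were the protein-coding genes whose symbols are those of large-subunit (Rpl, Rplp) or small-subunit (Rps, Rpsa) proteins, chosen by name and not by measured values. The rule found 80 genes of 35613. Of these, 46 were canonical large-subunit genes, 30 were canonical small-subunit genes and 4 were paralogs (Rpl3l, Rpl10l, Rpl39l and Rps27l). In all, 78 members passed the filter on low counts, and Rpl10l and Rpl39l did not. Rps3a1, Fau and Rack1 are also ribosome parts, but their symbols fall outside the rule.

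All cells were primary myoblast cultures with the genotype Pax7-nGFP, in which a nuclear GFP reports expression of Pax7, a transcription factor of muscle stem cells. In 5 groups of 3 biological replicates, the parental lines came from 16 week old males. Bulk myoblasts were unsorted cells at passage 3 in a serum-rich growth medium with basic FGF. GFP+ myoblasts were sorted for GFP from the same medium at passage 5 to 6. Differentiated myoblasts, harvested at passage 4 to 5, had spent 3 days in a medium with little serum and no FGF. MPC cultures, a name the labels do not spell out, were myoblasts kept for 5 to 6 passages in another medium with basic FGF, forskolin at 5 µM, RepSox at 5 µM and a compound written as CHIR9901 at 3 µM, after 2 to 3 passages in growth medium. Forskolin raises cyclic AMP, and RepSox blocks TGF-beta receptor signalling. Bulk MPC libraries hold the unsorted culture and GFP+ MPC libraries its GFP-positive cells. A single further GFP+ MPC library came from a 39 week old female, from GFP- sorted myoblasts at passage 8 that then spent 2 passages in the MPC medium. Sorted cells and unsorted cells had different RNA extraction kits, so sorting and kit cannot be told apart.

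Ribosomal proteins are made in the cytosol, enter the nucleolus and are assembled there with ribosomal RNA, in nearly fixed proportions. Their mRNAs begin with a run of pyrimidines, the 5′ terminal oligopyrimidine (TOP) motif, through which the mTOR pathway controls their translation. In muscle, growing myoblasts build many ribosomes, and a few members have paralogs of restricted expression, such as Rpl3l in heart and skeletal muscle.

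Library totals of matched estimated counts ran from 19.2 M to 28.9 M, and all replicates of a group differed by more than counting error. Pax7 was 551, 660.2 and 529 CPM (counts scaled to a fixed library total with TMM factors) in bulk myoblasts, 877, 835 and 1011 in GFP+ myoblasts and 596, 866 and 839 in GFP+ MPC. It was 66.2, 137 and 56.6 in bulk MPC and 25.3, 64.9 and 45.7 in differentiated myoblasts. Myh3, the embryonic myosin heavy chain of differentiating muscle, was 22775, 17663 and 19432 CPM in bulk MPC and 159, 426 and 258 in GFP+ MPC. In bulk samples, fewer cells of a type and less RNA per cell cannot be told apart.

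The start sites of the genes that moved together are shown first, because the TOP motif is defined by them. RefSeq's promoter table for GRCm38.p6 held 60 of the 80 members. The lines below give 25 bases before and 15 bases from the annotated start, on the sense strand. They cover 6 members of the table with large rises in GFP+ MPC over GFP+ myoblasts. These are not the 6 largest rises of the family, since Rps27a and Rpl17 are not shown. Members on a chromosome that was left out of this display could not be chosen. Capitals mark a run of at least 6 C or T that begins with a C within 5 bases of the start.
Rps16: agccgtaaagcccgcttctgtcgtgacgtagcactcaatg
Rps15a: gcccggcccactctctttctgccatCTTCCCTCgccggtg
Rps27: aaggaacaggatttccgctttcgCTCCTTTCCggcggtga
Rpl22: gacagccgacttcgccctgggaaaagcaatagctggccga
Rps25: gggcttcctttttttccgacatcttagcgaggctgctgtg
Rpl34: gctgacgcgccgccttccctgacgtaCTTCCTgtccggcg
The windows are Rps16 chr7:28350664-28350703 (plus strand), Rps15a chr7:118116133-118116172 (minus strand), Rps27 chr3:90213634-90213673 (minus strand), Rpl22 chr4:152325701-152325740 (plus strand), Rps25 chr9:44407689-44407728 (plus strand) and Rpl34 chr3:130730384-130730423 (minus strand). Rps15a, Rps27 and Rpl34 had such a run at the start shown, and Rps16, Rpl22 and Rps25 did not. Rpl22 and Rpl34 have 2 starts in the table, of which 1 is shown. Among members in the table, 25 of 60 (41.7%) had the run at 1 or more of their starts, against 11.9% of all genes in the table. With a run of at least 8, the shares were 33.3% and 5.17%. Only the sense strand was searched, since the motif is read in the mRNA, and annotated starts can lie away from the start in use. The table's 3 tested members with the lowest change in the same comparison are shown for contrast.
Rps27l: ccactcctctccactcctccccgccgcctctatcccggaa
Rps2: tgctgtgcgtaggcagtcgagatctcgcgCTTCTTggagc
Rpl3l: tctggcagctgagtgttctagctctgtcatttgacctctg
These windows are Rps27l chr9:66946061-66946100 (plus strand), Rps2 chr17:24720038-24720077 (plus strand) and Rpl3l chr17:24727801-24727840 (plus strand). Rps2 had a run of at least 6 at this start, and Rps27l and Rpl3l did not at the start shown, which is 1 of 2 for each.

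Median changes of members with and without the run lay close together in some comparisons and further apart in others. In GFP+ MPC over GFP+ myoblasts, the median log2 fold change was 0.62 in the 25 canonical members with the run and 0.59 in the 31 without it. In differentiated over bulk myoblasts, the medians were -0.46 and -0.47. In GFP+ MPC over bulk MPC they were 0.80 and 0.67. For the difference between the MPC and the myoblast step from bulk to GFP+ they were 0.51 and 0.40. The difference between these subsets was not tested.

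As a share of TPM, the summed level of the family separated all 5 groups. In TPM (a level per length, scaled to a fixed total), the 80 members held 23.6, 22.5 and 19.3% of all transcripts in the GFP+ MPC libraries and 15.1, 15.5 and 15.4% in GFP+ myoblasts. The share was 12.1, 12.8 and 11.5% in bulk myoblasts, 9.06, 10.8 and 8.53% in bulk MPC and 7.42, 7.42 and 7.94% in differentiated myoblasts. The group values, as mean ± SD (n = 3), were 21.8 ± 2.23%, 15.3 ± 0.170%, 12.1 ± 0.641%, 9.46 ± 1.18% and 7.59 ± 0.298% in that order, and no neighbours in it overlapped. On the TMM-scaled CPM sum, which is another scale, bulk MPC (40430.3, 41564 and 35524) overlapped bulk myoblasts (36386, 38488 and 34756). A two-sided exact permutation test of the TPM share gave p = 0.1 in each of the 6 comparisons below, the smallest value that 3 against 3 libraries allow. The high-passage GFP+ MPC library stood above all others at 27.6%. Single members ranged, in the mean of the 5 groups, from Rpl41, the shortest ribosomal protein, at 4363 TPM, Rps24 at 3386 and Rps12 at 2952 down to Rps3 at 862, Rpl39 at 799 and Rpl35 at 772, paralogs left out.

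**Figure D1:**
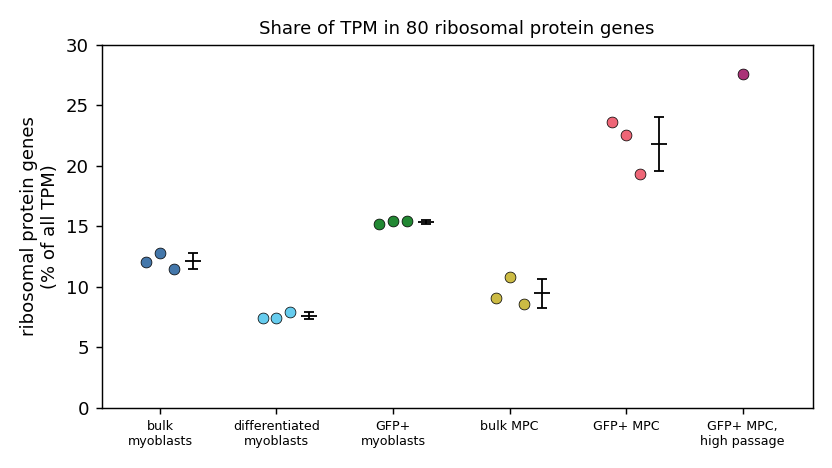
Share of TPM in the 80 ribosomal protein genes (y axis, percent of all TPM) for each of 16 libraries (points) by group (x axis), with the group mean and SD (n = 3) beside the points. GFP+ MPC libraries lie between 19.3% and 23.6%, above all other replicated groups, and differentiated myoblasts are lowest.

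GFP+ MPC against GFP+ myoblasts compares cells of the same gate and kit grown in the MPC medium with its 3 compounds or in growth medium, at different passages. Ribosomal protein genes of both subunits were higher in GFP+ MPC. Of 78 tested members, 73 rose at an adjusted p under 0.05 (edgeR quasi-likelihood test, Benjamini-Hochberg over all 15533 genes tested), where 26.0% of all genes rose. The median log2 fold change of members was 0.61 (interquartile range 0.48 to 0.75), against 0.09 over all genes. The 30 canonical small-subunit genes had a median of 0.72 and the 46 large-subunit genes 0.58. Markers of other cell types and of dividing cells moved as well. Summed Schwann cell markers were 17.2 to 26.6 CPM in GFP+ myoblasts and 128 to 257 in GFP+ MPC, with 3 of 4 tested markers higher and 1 lower. Smooth muscle and pericyte markers summed to 306 to 594 and 396 to 826 CPM, with 5 of 8 higher and 1 lower. Mki67, a marker of dividing cells, rose by 1.34 on the log2 scale. Their part in the result was not tested.

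The 4 largest rises were in small-subunit genes. Rps27a, which encodes ubiquitin fused to a small-subunit protein, was 400.3, 418 and 469 CPM in GFP+ myoblasts and 970.4, 924 and 724 in GFP+ MPC. Every GFP+ MPC library was above every GFP+ myoblast library, and the rise was 1.03 ± 0.11 on the log2 scale (adjusted p = 1.08e-05). Rps16 rose by 0.99 ± 0.11 on the log2 scale (adjusted p = 1.42e-05), from 405, 429 and 443 to 944, 885 and 694 CPM. Rps15a, at 314, 322 and 315 CPM in GFP+ myoblasts, reached 645, 646 and 495, and Rps27 went from 202, 199 and 212 to 416, 410.4 and 315. Their log2 fold changes were 0.92 and 0.90 (adjusted p = 2.42e-05 and 2.09e-05).

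The 5 members that did not pass the test were Rps2, Rplp0, Rpl41, Rps27l and Rpl3l. Rps2, a small-subunit protein at the mRNA entry channel, was 1856, 1881 and 2368 CPM in GFP+ myoblasts and 2245, 2013 and 1925 in GFP+ MPC, with overlapping groups (log2 fold change 0.03, adjusted p = 0.88). Rplp0, the base of the ribosomal stalk, was 2033, 2055 and 2180.1 and 3000.3, 2408 and 2108 CPM, and its log2 fold change of 0.27 missed the threshold (adjusted p = 0.1). Rpl41 stood at 750.2, 837 and 1039 and 1289, 1072 and 884 CPM (adjusted p = 0.089). Both Rplp0 and Rpl41 passed the threshold when GFP+ MPC replicate 3 was left out, and Rpl41 also without GFP+ myoblast replicate 3. In GFP+ MPC replicate 3, 76 of 78 members were lower than in the other 2 GFP+ MPC libraries, and the median difference from their mean was -0.32 on the log2 scale. How many of all genes were lowest in this replicate was not counted. A fit of these 2 groups alone called 56 members higher.

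GFP+ MPC against bulk MPC asks how the Pax7-reporter cells differ from the culture they were sorted from, with the RNA kit changing as well. Nearly the whole family was higher in the sorted cells: 76 of 78 members rose (32.9% of all genes did), with a median log2 fold change of 0.72 (interquartile range 0.56 to 0.82) against -0.01 over all genes. Rpl27 did not pass the test (log2 fold change 0.16, adjusted p = 0.131), and Rpl3l fell (33.7% of all genes did). Rps12, a small-subunit head protein, rose most, from 479, 505 and 426 CPM in bulk MPC to 1304, 1041 and 876 in GFP+ MPC. This was 1.18 ± 0.14 on the log2 scale (adjusted p = 8.13e-06), and the groups did not overlap. Rpl12, a protein of the stalk base, rose by 1.13 ± 0.15 on the log2 scale (adjusted p = 1.42e-05), from 529, 568 and 425 to 1225, 1216 and 901 CPM. Rps16 and Rpl22 had log2 fold changes of 1.03 and 1.02. With library totals in place of TMM factors, the median of members was 1.20 and that of all genes 0.46.

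GFP+ myoblasts against bulk myoblasts is the same step in growth medium, with passage 5 to 6 set against passage 3. The members' median log2 fold change was 0.24 (interquartile range 0.13 to 0.28), against -0.02 over all genes, and 17 of 78 rose (12.7% of all genes did). The number rests on the method: DESeq2 called 36, and the count was 7 and 6 without bulk myoblast replicates 1 and 3, and 10 and 8 without GFP+ myoblast replicates 2 and 3. Rps2 rose most, from 1286, 1425 and 1264 CPM in bulk to 1856, 1881 and 2368 in GFP+ myoblasts, by 0.61 ± 0.13 on the log2 scale (adjusted p = 0.00299). Rpsa, the small-subunit protein also known as the laminin receptor, went from 1212, 1232 and 1060.1 to 1541, 1548 and 1927 CPM, a log2 change of 0.51 (adjusted p = 0.00644). Rps26, Rplp0 and Rpl4 followed at 0.51, 0.46 and 0.40. Rps27a and Rps15a, which rose in GFP+ MPC over GFP+ myoblasts, had log2 changes of -0.02 and 0.00 (adjusted p = 0.895 and 0.98).

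The step from bulk to GFP+ was larger in MPC than in myoblast cultures. The test of the difference, added after both steps had been seen, called 45 of 78 members higher (20.3% of all genes were) and Rpl3l lower (16.8%), with a median log2 difference of 0.49 against 0.09 over all genes. Rpl22 and Rps12 led it at 1.00 and 0.98 (adjusted p = 0.000805 and 0.00229), followed by Rps15a at 0.96. Leaving out 1 library gave 30 to 59 members. Muscle fibre transcripts were lower in both sorted groups: Myh3 went from 8750.1, 6402 and 9175 CPM in bulk myoblasts to 78.6, 64.2 and 90.1 in GFP+ myoblasts, and the MPC values are given above. Mki67 was 49.6, 156 and 68.6 CPM in bulk MPC, 699, 923 and 769 in GFP+ MPC, 192, 174 and 177 in bulk myoblasts and 314, 232 and 403 in GFP+ myoblasts. The 11 fibroblast markers summed to 290.0 to 987 CPM in bulk MPC and 1075 to 1628 in GFP+ MPC. Of the 9 that were tested, 1 rose (Col3a1, 2.03) and 4 fell (Pdgfra, Col1a1, Dpep1 and Gsn at -3.93, -4.60, -4.53 and -0.89). Of all genes, 32.9% rose and 33.7% fell in this comparison. The median log2 change of the 9 markers was -0.89, against the direction of the sum. The part of these markers in the result was not tested.

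Differentiated against bulk myoblasts shows the family after 3 days in differentiation medium, with passage 4 to 5 set against passage 3. Medium and passage cannot be told apart here. Ribosomal protein genes were lower: 65 of 78 members fell (28.6% of all genes did) and Rpl3l rose (25.6%). The median log2 fold change was -0.45 (interquartile range -0.59 to -0.30) against -0.03 over all genes. Mki67 fell by 6.11 on the log2 scale in the same comparison. Rpl12 fell most among the members, from 625, 673 and 573 CPM in bulk to 277, 292 and 334 in differentiated myoblasts, at -1.04 ± 0.15 on the log2 scale (adjusted p = 6.53e-05). Rps12, at 549.7, 592 and 499.7 CPM before, was 276, 259 and 299.6 after differentiation. Its log2 change was -0.96 (adjusted p = 0.000106). Rps23, which sits at the decoding centre, changed from 473, 497 and 433 to 232, 234 and 265 CPM (log2 -0.93, adjusted p = 3.39e-05).

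Of the canonical members, 9 large-subunit and 3 small-subunit genes did not pass the test. Rpl38 was 133, 139 and 126 CPM in bulk and 129, 134 and 133 in differentiated myoblasts, with overlapping groups (log2 change 0.01 ± 0.09, adjusted p = 0.966). Rpl24 went from 324, 329 and 320.4 to 301, 304 and 319 CPM and Rpl29 from 346, 352 and 343 to 333, 334 and 316. Their log2 changes of -0.06 and -0.07 did not pass the test (adjusted p = 0.533 and 0.557), and neither did those of Rpl14, Rpl27 and Rpl36 (-0.07, -0.12 and -0.14). The others were Rpl35, Rpl13 and Rpl41 (-0.15, -0.26 and -0.31) and the small-subunit genes Rps25, Rps15 and Rps10 (-0.24, -0.29 and -0.30).

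Bulk MPC against bulk myoblasts gave no direction for the family that holds across scalings. With TMM factors, 21 of 78 members rose (28.4% of all genes did) and Rps27l fell (30.1%), and the median log2 fold change was 0.14, against -0.01 over all genes. With library totals only, 1 member rose and 30 fell, counts that have no share of all genes beside them here. The median turned to -0.23 while that of all genes moved to -0.38, so the members' median stayed above that of all genes. As a share of TPM, bulk MPC libraries were also below bulk myoblasts. Mitochondrially encoded genes took from 8.37% to 9.85% of estimated counts for bulk MPC and from 4.04% to 4.58% for bulk myoblasts. Without their reads, the median of members on library totals was -0.15 and that of all genes -0.30. Rpl38 went from 133, 139 and 126 to 200.2, 195 and 169 CPM, a log2 change of 0.51 (adjusted p = 0.000429), and Rps27a from 446, 445 and 414 to 642, 617 and 574 (0.50, adjusted p = 0.00202). On library totals these 2 changes were 0.15 and 0.14 and missed the threshold. The count of 21 fell to 9 without bulk MPC replicate 1 or without bulk myoblast replicate 3, and to 12 without bulk MPC replicate 2.

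Bulk MPC against differentiated myoblasts compares both cultures that are rich in muscle fibre transcripts. Of 78 members, 76 were higher in bulk MPC (24.4% of all genes were), with a median log2 fold change of 0.58 (interquartile range 0.48 to 0.71) against 0.07 over all genes. Rpl36a, at 97.8, 102 and 116 CPM in differentiated myoblasts, was 204, 224 and 174 in bulk MPC, and Rps23 rose from 232, 234 and 265 to 451, 505 and 423. Their log2 changes were 0.93 and 0.92 (adjusted p = 6.65e-05 and 6.48e-05). Rps27l and Rpl41 did not pass the test (0.09 and 0.34, adjusted p = 0.693 and 0.0716).

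**Figure D2:**
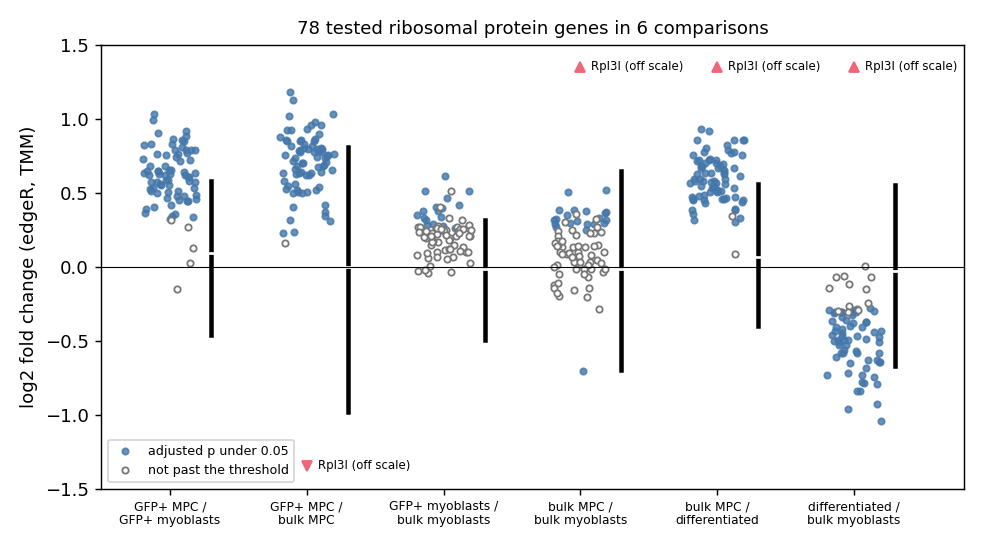
Log2 fold change (y axis) of the 78 tested ribosomal protein genes (points) in 6 comparisons (x axis, first group over second), filled where the adjusted p was under 0.05, with black bars for the interquartile range of all genes and a white mark at their median. Rpl3l lies off the scale in 4 comparisons and is drawn as a triangle at the edge. Most members lie above 0 in GFP+ MPC over GFP+ myoblasts and below 0 in differentiated over bulk myoblasts, at medians of 0.61 and -0.45.

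The members did not move by one factor. To describe this, each library was also scaled to its own sum of ribosomal protein counts, so that a value gives a member's change against that of the family. Genes outside the family are shifted by the family's own change under this scaling. The shares of all genes given with these counts are therefore no background for the members. The adjustment of p-values also ran over these shifted genes. In GFP+ MPC over GFP+ myoblasts 14 of 78 members differed from the sum (54.3% of all genes did). Rps27a and Rps16 were above it by 0.47 and 0.43 on the log2 scale (adjusted p = 0.0011 and 0.00232), and Rps27l, Rps2 and Rplp0 were below it at -0.70, -0.52 and -0.29. The count was 8 and 23 without GFP+ MPC replicates 2 and 3, 7 and 6 without GFP+ myoblast replicates 1 and 2, and 4 in a fit of both groups alone.

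In differentiated over bulk myoblasts, 18 members differed from the sum (59.4% of all genes did). Rpl12, Rps12, Rps23, Rpl3 and Rplp1 were below it at -0.54, -0.47, -0.43, -0.34 and -0.34. Rpl38, Rpl24, Rpl29, Rpl14 and Rpl27 were above it at 0.50, 0.43, 0.43, 0.42 and 0.38. In GFP+ MPC over bulk MPC, 18 members differed (68.1% of all genes did), with Rps12, Rpl12 and Rpl3 above the sum at 0.46, 0.41 and 0.26 and Rpl27, Rpl38 and Rpl24 below it at -0.54, -0.48 and -0.48. These 2 comparisons share no library. Fits of only the groups compared called 36 in the former and 5 in the latter. The counts in bulk MPC over bulk myoblasts, bulk MPC over differentiated and GFP+ over bulk myoblasts were 14, 10 and 5 (53.8%, 58.0% and 27.5% of all genes), and fell to 5 to 8, 1 to 6 and 0 to 1 when any 1 of their libraries was left out.

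**Figure D3:**
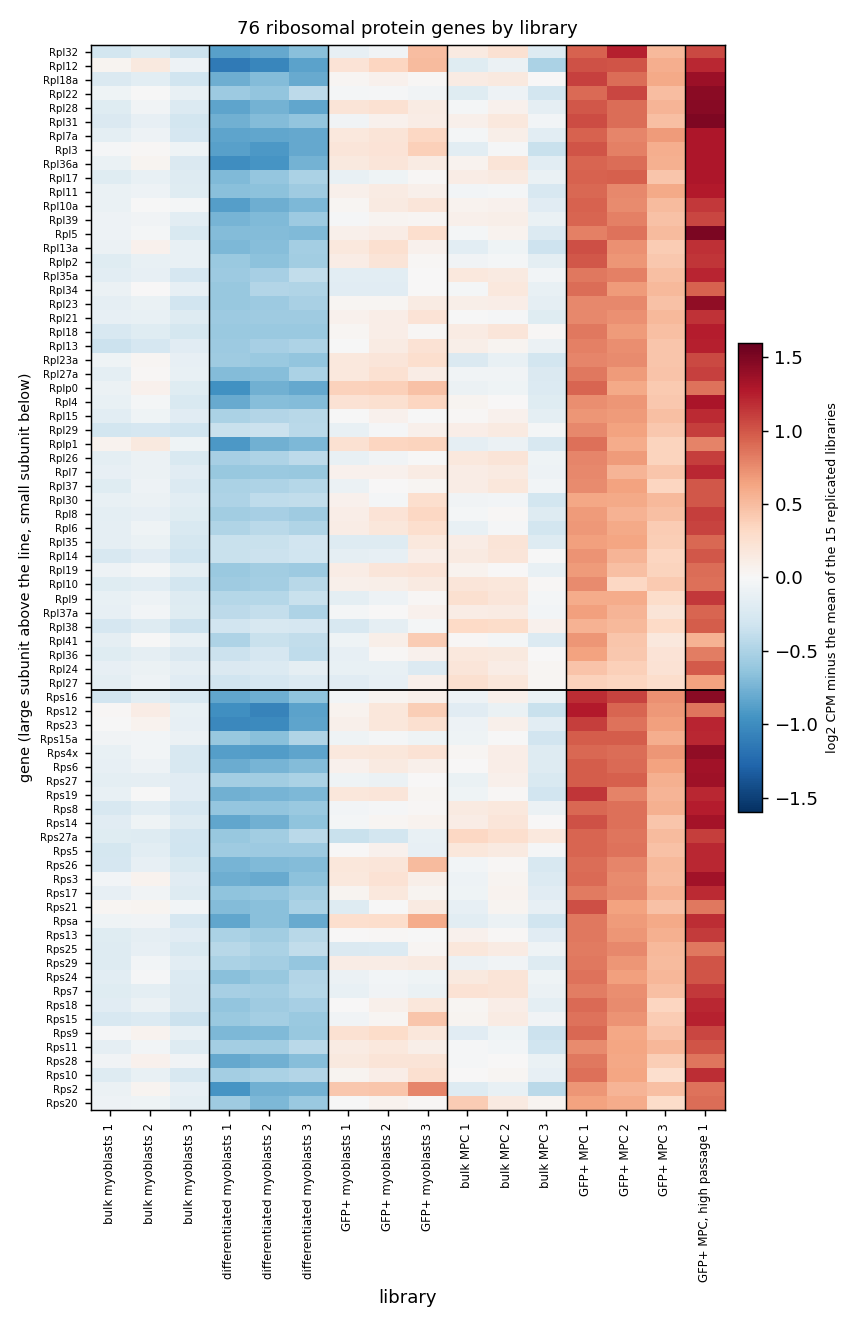
Log2 CPM of the 76 canonical ribosomal protein genes (rows, large subunit above the line) in 16 libraries (columns), each minus its mean over the 15 replicated libraries; red is above and blue below that mean. GFP+ MPC columns are red and differentiated myoblast columns blue in nearly all rows, GFP+ MPC replicate 3 is paler than replicates 1 and 2, and Rpl12 and Rps12 span a wider range than Rpl24 and Rpl27.

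Among the paralogs, Rpl3l, the striated muscle form of the peptidyl transferase centre protein Rpl3, fell in GFP+ MPC over bulk MPC and rose in differentiated over bulk myoblasts, against the family, and rose with it in bulk MPC over differentiated myoblasts. Its estimated counts were 79, 112 and 167 in bulk MPC and 14, 27 and 16 in differentiated myoblasts. They were 1, 0 and 1 in bulk myoblasts, 1, 0 and 2 in GFP+ myoblasts, 1, 1 and 1 in GFP+ MPC and 2 in the high-passage library. The first 2 groups were above all others, which were near 0. From summed counts, the ratio of bulk MPC to bulk myoblasts was 239 (95% counting interval 65.8 to 1984), and that of bulk MPC to GFP+ MPC was 144 (95% counting interval 49.0 to 704). Differentiated exceeded bulk myoblasts by a ratio of 39.8 (95% counting interval 10.5 to 337), and bulk MPC exceeded differentiated myoblasts by 6.01 (95% counting interval 4.54 to 8.10). These intervals cover counting error only. In edgeR, these 4 changes passed the threshold (adjusted p = 1.7e-06, 7.69e-07, 8.83e-05 and 0.000598). Rpl3l passed the filter on low counts only through bulk MPC and differentiated myoblasts, the groups where it is high. The p-values against groups near 0 are therefore no separate support for the difference.

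Rpl3 itself was 850.3, 938 and 746 CPM in bulk MPC, 522, 502 and 539 in differentiated, 943, 965 and 912 in bulk myoblasts, 1090.2, 1109 and 1245 in GFP+ myoblasts and 1915, 1669.6 and 1428 in GFP+ MPC. Per length, Rpl3l reached 0.772% ± 0.514 (SD, n = 3) of the Rpl3 TPM in bulk MPC and 0.272% ± 0.161 in differentiated myoblasts. Even where Rpl3l was highest, it was a small part of the pair.

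Rps27l, a paralog of Rps27 that p53 is known to induce, was 102, 111 and 113 CPM in GFP+ myoblasts and 88.1, 103 and 83.9 in bulk myoblasts. It was 120.0, 70.8 and 101 in GFP+ MPC, 60.0, 56.7 and 50.7 in bulk MPC and 46.7, 59.6 and 51.6 in differentiated myoblasts. It fell in bulk MPC against bulk myoblasts (-0.70, adjusted p = 0.00215) and in differentiated against bulk myoblasts (-0.79, adjusted p = 0.0011). In GFP+ MPC against GFP+ myoblasts, where Rps27 rose, Rps27l had a log2 change of -0.15 (adjusted p = 0.445), and GFP+ MPC replicates ranged widely. Its TPM was 56.2% ± 3.11 of that of Rps27 in GFP+ myoblasts and 27.3% ± 8.40 in GFP+ MPC. Rps4x, Rpl10 and Rpl39, the partners of other paralogs, rose in GFP+ MPC over GFP+ myoblasts by 0.65, 0.41 and 0.74 (adjusted p = 0.000172, 0.00698 and 0.000115). Rpl10l had 1 count in 1 GFP+ MPC library and was at 0 in all others, and Rpl39l had at most 7 counts in a library.

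**Figure D4:**
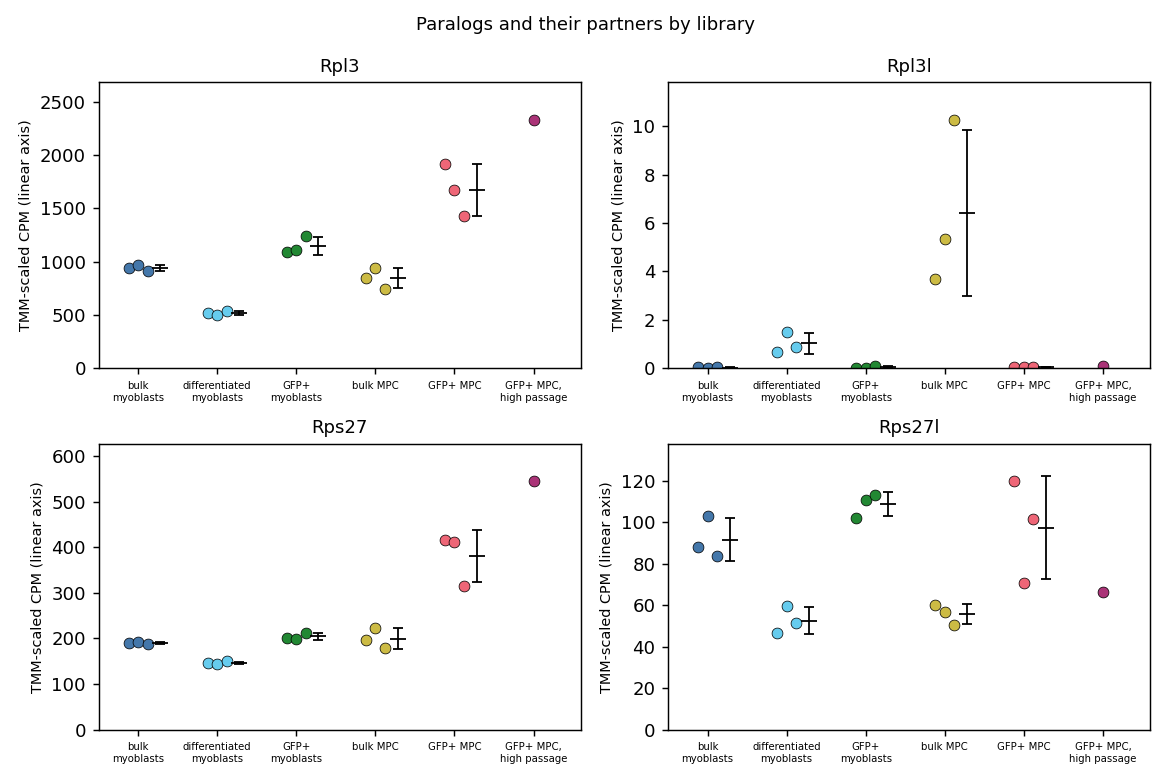
TMM-scaled CPM (y axes, linear, from 0) of Rpl3 and its paralog Rpl3l and of Rps27 and its paralog Rps27l in 16 libraries (points) by group (x axis), with mean and SD (n = 3). Rpl3l is detected mainly in bulk MPC and differentiated myoblasts, with bulk MPC at 3.68, 5.35 and 10.3 CPM, whereas Rpl3 is highest in GFP+ MPC.

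Below the level of genes, transcript use was looked at in the 77 members with at least 10 TPM in every library. Of their 478 transcripts, 9 changed their share of the gene's TPM by over 10 percentage points between group means, and the widest ranges were in Rps24, which was chosen for description on these values. Rps24 is a small-subunit protein with alternative last coding exons. Transcripts Rps24-202 and Rps24-205 of GENCODE M21 differ by an exon of 18 bases. It is shown in capitals between the last 12 bases of the exon before it and the first 8 bases of the exon after it. Their annotated first exons also differ in length, so the share of the pair need not rest on the short exon alone.
Rps24-202: gctggcaaaaagtgagtgga
Rps24-205: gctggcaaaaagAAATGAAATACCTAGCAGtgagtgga
The short exon holds the stop codon of Rps24-205.

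Rps24-205 was the major form of the pair in differentiated myoblasts and nearly lost in GFP+ MPC. Its share of the TPM of both transcripts was 66.2, 61.4 and 62.5% in differentiated myoblasts, 52.3, 37.4 and 46.8% in bulk MPC and 27.0, 25.0 and 27.7% in bulk myoblasts. In sorted cells it was 11.8, 13.6 and 6.71% in GFP+ myoblasts and 2.44, 3.18 and 3.45% in GFP+ MPC, and 1.97% in the high-passage library. No 2 groups overlapped. The pair was itself chosen for the widest ranges between group means in these libraries. Neither this separation nor the test that follows is therefore separate support. A test of transcript use within genes (edgeR diffSpliceDGE, Benjamini-Hochberg over 44289 transcripts) gave Rps24-205 a log2 change of -1.85 against the rest of Rps24 in GFP+ MPC over GFP+ myoblasts (adjusted p = 7.56e-07), where 0.842% of transcripts passed. It was -3.90 in GFP+ MPC over bulk MPC (adjusted p = 9.31e-30; 2.35% of transcripts), -1.29 in GFP+ over bulk myoblasts (0.00209; 0.892%) and 1.18 in differentiated over bulk myoblasts (0.00807; 1.04%).

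In bulk MPC over bulk myoblasts and over differentiated myoblasts, the change of Rps24-205 did not pass (0.77 and -0.41, adjusted p = 0.247 and 1; 1.03% and 0.788% of transcripts passed). The transcript counts are estimates with no measure of assignment error in the files, so these p-values are too small. Rps24-201, a model that stops 3 bases past the shared exon, took 37.6% to 43.9% of the gene's TPM by group and cannot be assigned to either form. Rps24 as a whole gene rose in GFP+ MPC over GFP+ myoblasts (0.76, adjusted p = 8.92e-05) and fell in differentiated over bulk myoblasts (-0.43, adjusted p = 0.00453).

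**Figure D5:**
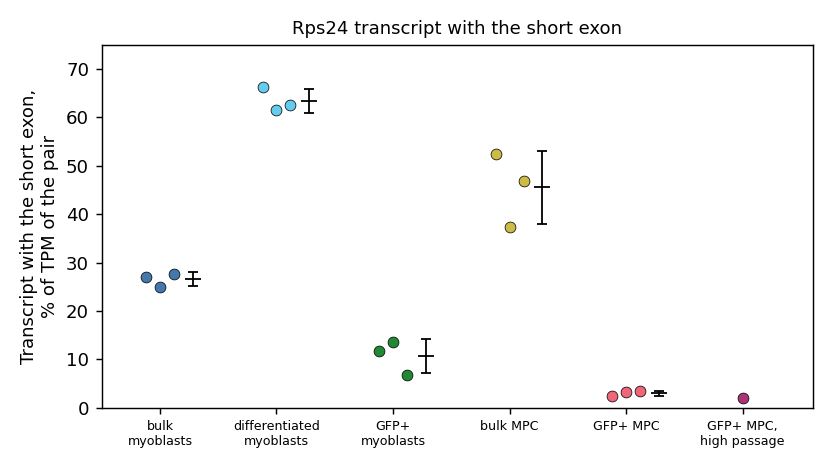
Share of Rps24-205, the transcript with the short exon, in the summed TPM of Rps24-205 and Rps24-202 (y axis, percent) for 16 libraries (points) by group (x axis), with mean and SD (n = 3). Differentiated myoblasts are highest at 66.2, 61.4 and 62.5% and GFP+ MPC libraries at 2.44, 3.18 and 3.45%.

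Other parts of the ribosome pathway were set beside the members. Ribosome parts with other symbols rose with them in GFP+ MPC over GFP+ myoblasts: Fau by 0.67, Rack1 by 0.43 and Rps3a1, named after its values were seen, by 0.67 on the log2 scale. Of 8 non-coding hosts of small nucleolar RNAs, 6 rose (26.0% of all genes did), with Gas5 at 0.85, and 7 of 8 fell in differentiated over bulk myoblasts (28.6% of all genes did). Translation factors known to have TOP mRNAs rose in 8 of 19 cases in GFP+ MPC over GFP+ myoblasts, led by Eif3f at 0.62 and Eef1b2 at 0.56, and the list's median was 0.29.

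Factors that process ribosomal RNA did not follow in that comparison. Of 61, 3 rose and 8 fell (26.0% and 22.7% of all genes did), with a median of -0.10, and Bop1 and Rrp12 stood at -1.11 and -0.99. In GFP+ MPC over bulk MPC, 40 of 61 rose and 5 fell (32.9% and 33.7% of all genes did), and the largest changes were Rrp12 at -2.20, Rcl1 at 2.14 and Utp20 at 2.09. In differentiated over bulk myoblasts 33 fell and 2 rose (28.6% and 25.6% of all genes did), and Npm1, the nucleolar protein nucleophosmin, fell by 1.69 on the log2 scale. In bulk MPC over bulk myoblasts, 30 fell and 3 rose (30.1% and 28.4% of all genes did). The protein genes of the mitochondrial ribosome, a separate particle, went with the cytosolic members in some comparisons and apart in others. In GFP+ MPC over GFP+ myoblasts, 31 of 78 rose and 4 fell (26.0% and 22.7% of all genes did). In bulk MPC over differentiated myoblasts 27 rose and 1 fell (24.4% and 19.4% of all genes did). In GFP+ over bulk myoblasts 10 rose and 1 fell (12.7% and 17.4% of all genes did). In bulk MPC over bulk myoblasts, 62 of 78 rose (28.4% of all genes did). In differentiated over bulk myoblasts, where the cytosolic members fell, 33 of 78 rose (25.6% of all genes did). In GFP+ MPC over bulk MPC, 26 of the 78 mitochondrial genes fell and 8 rose, with 33.7% of all genes lower and 32.9% higher, so the share that fell was near that of all genes. Of 26 genes of growth control, 8 rose and 2 fell in GFP+ MPC over GFP+ myoblasts (26.0% and 22.7% of all genes did). Among them, Mycn, a transcription factor known to drive ribosome genes, went from 0.408, 0.267 and 0 CPM in GFP+ myoblasts to 9.60, 33.5 and 23.2 in GFP+ MPC (adjusted p = 1.8e-05). Sesn1 and Mxd3, which are known to restrain growth signalling or Myc targets, rose by 2.08 and 1.94 on the log2 scale. Myc fell in differentiated over bulk myoblasts at -1.07. Comparisons that name the same group share its 3 libraries.

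The high-passage GFP+ MPC library has no replicate and was not tested. It was above all 3 GFP+ MPC libraries in 71 of 78 members and below all 3 in 1, Rps27l, with a median log2 difference of 0.45 from their mean. The same count was not made over all genes, so it cannot be read as particular to the family. Rpl3 was 2333 CPM and Rps27a 1102 CPM, whereas Rps12 was 984 CPM, inside the range of GFP+ MPC. Sex, age, the GFP- start and the passages all differ together in this library and cannot be told apart.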

How the data were processed

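Per the file headers, the deposited table of each of the 16 libraries lists transcripts with estimated counts, TPM, and lengths (an other unit, in bases). Per the submitters' processing notes, the authors used fastp 0.20.0, kallisto 0.46.1 and the build GRCm39; per the labels' protocols, libraries were stranded, poly(A)-selected and single-end. Transcripts were matched to GENCODE M21 for names (120739 of 121798 matched; 1059 without a gene held 0.478% to 1.05% of counts and were left out), and estimated counts were summed per gene and rounded. The files list few pseudogenes (95 genes), so reads from processed copies of ribosomal protein genes can count towards members.

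Genes were tested with edgeR 4.0.16 (R 4.3.3): TMM, a filter at a minimum count of 10 and total of 15 that left 15533 genes, 1 quasi-likelihood fit of 15 libraries, and Benjamini-Hochberg adjustment over all genes at 0.05. Standard errors come from the F statistic. DESeq2 1.42.0, other scalings, no filter, length-scaled counts, added pseudogenes, fits of only the groups compared, the replicate number as a block and each library left out were alternatives. The fit was tested on simulated data with known changes. Replicates are biological per the labels. Same-numbered libraries deviated together (r over 0.1 in every pair, 0.159 to 0.201) only between bulk MPC and bulk myoblasts, and the labels do not say what a number marks.

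The members, the gene lists and the tests were chosen with earlier results of these data known. Members were named for the 4 largest changes each way in the same direction in all 3 same-numbered pairs, for going against the family, for missing the test where 5 or fewer did, or as a paralog or its partner; in each of the other gene lists up to 3 genes with the largest changes were allowed. Rpl4, Rps24, members named against the family sum, members named again in a second comparison, the members that missed the test after differentiation and the named marker genes were chosen after their values were seen. Of the other cell types, the summed markers of endothelium (3.54 to 8.34 CPM) and leukocytes (2.36 to 11.1 CPM) were near 0. Those of Schwann cells (17.2 to 552 CPM), smooth muscle (306 to 1530 CPM) and fibroblasts (271 to 1628 CPM) were not. Promoters came from RefSeq, GRCm38.p6.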

Additional observations from a re-analysis of the deposited data

Results flagged for a closer look

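The change from bulk to GFP+ cells differed between the MPC and the myoblast cultures by a test of the difference itself, added after both steps had been seen. It called 45 of 78 ribosomal protein genes higher in MPC cultures (20.3% of all genes were) and 1, Rpl3l, lower (16.8%). Leaving out 1 library gave 30 to 59 members higher. The kit changes with sorting in both cultures, and the passage changes with it in the myoblasts, so these cannot be told apart from sorting.

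The high-passage GFP+ MPC library, which entered no comparison, had 27.6% of its TPM in ribosomal protein genes, above the 11.5% to 12.8% of bulk myoblasts and the 19.3% to 23.6% of GFP+ MPC.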

How the results depend on the processing

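The median change of members kept its sign under every scaling, filter, tool and left-out library in 5 of the 6 comparisons. In bulk MPC over bulk myoblasts it reversed to -0.23 with library totals only. It was -0.15 when mitochondrially encoded genes were removed as well (this was added after the data were seen). In each case 1 member rose, and 30 and 20 fell, with no share of all genes given beside these counts. The median of all genes was lower still in these settings, at -0.38 and -0.30. With no filter on low counts, 7 rose there. In GFP+ over bulk myoblasts, the number that rose was 37 with library totals, 29 without mitochondrially encoded genes, 36 in DESeq2 and 9 with no filter. The larger step in MPC cultures was called in 76 members under both settings of library totals. There the median difference of all genes was also raised, at 0.46 and, without mitochondrially encoded genes, 0.39. Library totals moved the median of all genes from -0.01 to -0.38 in bulk MPC over bulk myoblasts and from -0.01 to 0.46 in GFP+ MPC over bulk MPC.

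With a library left out, the members that rose were 70 to 75 in GFP+ MPC over GFP+ myoblasts, 71 to 76 in GFP+ MPC over bulk MPC, 71 to 76 in bulk MPC over differentiated, 9 to 25 in bulk MPC over bulk myoblasts, 6 to 12 in GFP+ over bulk myoblasts and 30 to 59 in the difference of steps, and 51 to 62 fell in differentiated over bulk myoblasts. For GFP+ over bulk myoblasts the counts were 7 and 6 without bulk myoblast replicates 1 and 3, and 10 and 8 without GFP+ myoblast replicates 2 and 3.

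Counts of members that differ from the family sum were less stable. Leaving out a library gave 6 to 23 in GFP+ MPC over GFP+ myoblasts, 12 to 23 in GFP+ MPC over bulk MPC, 13 to 16 in differentiated over bulk myoblasts, 5 to 8 in bulk MPC over bulk myoblasts, 1 to 6 in bulk MPC over differentiated and 0 to 1 in GFP+ over bulk myoblasts. Fits of only the groups compared gave 4, 36 and 5 in GFP+ MPC over GFP+ myoblasts, differentiated over bulk and GFP+ MPC over bulk MPC. Length-scaled counts gave 6 in bulk MPC over differentiated and 1 in GFP+ over bulk myoblasts, where TMM factors over the members also gave 1. The cause was not tested.

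With the replicate number as a block, 71, 75, 76, 20 and 13 members rose in GFP+ MPC over GFP+ myoblasts, GFP+ MPC over bulk MPC, bulk MPC over differentiated, bulk MPC over bulk myoblasts and GFP+ over bulk myoblasts, and 61 fell in differentiated over bulk. Against the family sum, the block gave 9 in bulk MPC over bulk myoblasts and 1 in GFP+ over bulk myoblasts. The Rps24 share was 42.1% to 49.6%, 26.0% to 27.4%, 62.0% to 64.4%, 2.81% to 3.31% and 9.25% to 12.7% in bulk MPC, bulk myoblasts, differentiated myoblasts, GFP+ MPC and GFP+ myoblasts with a library left out.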
